A study of Drosophila melanogaster with 16 samples.

Results

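Attacin C, Diptericin B and Drosocin are secreted antimicrobial peptides of the fruit fly, and their messenger RNAs AttC (FBtr0087653), DptB (FBtr0086621) and Dro (FBtr0087436) were followed in the adult heart of Drosophila melanogaster between 10 and 40 days of age. They were chosen by their rise between these ages in the same arrays, so their age ratios are given here as a description and were not tested. They are 3 of the 16637 transcripts on the arrays and account for 24 of the 132999 gene probes, 8 probes each. Names follow the transcript identifiers in the study's list of probes. Its list of genes holds neither DptB nor Dro under their gene identifiers and its entry for Drs, the gene of Drosomycin, holds the value of a Dro probe, so the names DptB and Dro rest on the transcript identifiers. The flies were males of a w1118, Canton S isogenic line, reared 30 to a batch (25°C, 60% humidity), with no transgene or treatment. Each of the 8 RNA samples pooled 10 hand-dissected cardiac tubes, with 4 samples at 10 days and 4 at 40 days lettered A to D. Every sample was labelled once with Cy5 and once with Cy3 and hybridised against a sample of the other age, which gave 16 channels on 8 arrays of 1 slide.

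The 3 peptides are classical products of the IMD pathway, the branch of fly immunity that responds mainly to Gram-negative bacteria. Peptidoglycan of these bacteria binds receptors such as PGRP-LC, the adaptor Imd passes the signal on, and the NF-kappaB factor Relish is cleaved and switches on peptide genes. The fat body is the main source of these peptides in an infected fly, and epithelia and blood cells also make them. Attacins and diptericins are glycine-rich and act on Gram-negative bacteria, whereas Drosocin is a short proline-rich peptide. All 3 genes lie on chromosome arm 2R, where DptB is next to DptA, which encodes Diptericin A, and Dro is next to AttA and AttB.

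The deposited records did not agree on which 40-day sample a channel held. By the labels, the arrays with numbers 1 and 2 carried letter A of both ages, 3 and 4 letter B, 5 and 6 letter C, and 7 and 8 letter D. In the table of normalized values that the authors deposited, 8 of the 16 columns followed their own channel and 8 followed another channel, which shared the age and the dye. Across probes each column correlated at 0.992 or more with the channel it followed and at 0.941 or less with the rest. In that order the 40-day sample A lay on arrays 1 and 8, B on arrays 3 and 2, C on arrays 5 and 4 and D on arrays 7 and 6, each time Cy5 first. At 10 days only the letters B and C changed places, so the 4 samples held the same channels. The age of every channel was the same in both records. Values are therefore given by array and dye, which neither record disputes, and by sample under both.

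At 40 days the 3 transcripts were bright in all 8 channels, and at 10 days they lay near the control probes, which carry random sequences. The AttC intensity, as the geometric mean of its 8 probes before any correction, was 98.6 to 255.8 in the 10-day channels and 1303 to 4120 in the 40-day channels. DptB lay between 108.6 and 419.4 at 10 days and between 570 and 4450 at 40 days. Dro lay between 81.3 and 154.0 at 10 days and between 357 and 3143 at 40 days. The channels of the 2 ages did not overlap for any of the 3. For DptB the brightest 10-day channel, Cy5 of array 2, came close to the dimmest 40-day channels, those of arrays 6 and 7. The members were chosen on the age contrast, so nothing is read from the lack of overlap. The share of all transcripts without overlap was not counted.

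**Figure D1:**
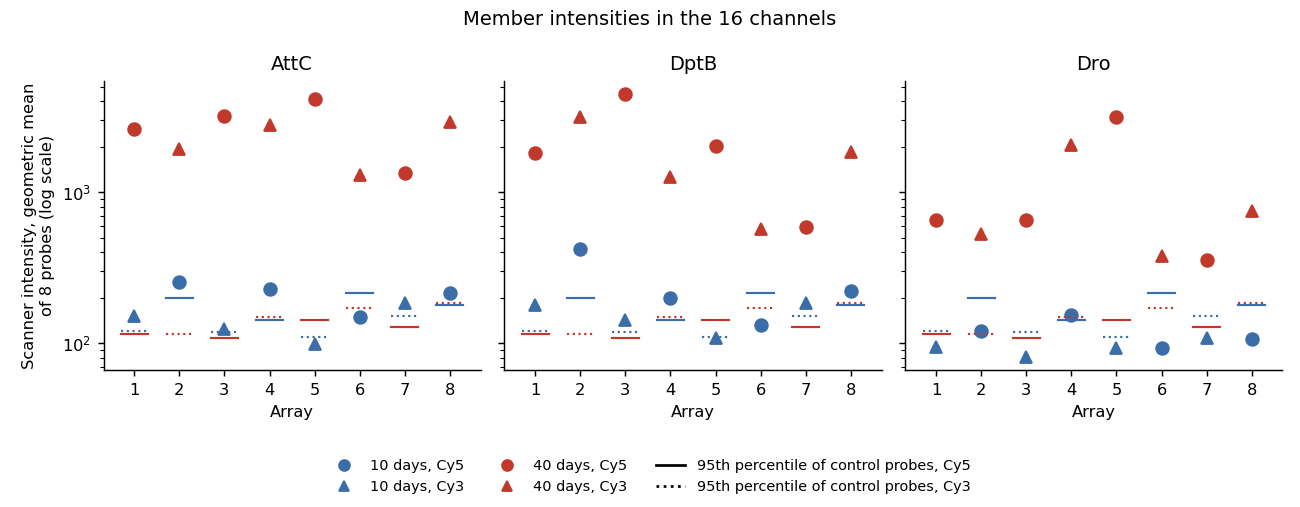
Scanner intensity of AttC, DptB and Dro in each channel, as the geometric mean of 8 probes on a log scale, against array number. Red marks 40 days and blue 10 days, circles Cy5 and triangles Cy3, and short lines the 95th percentile of that channel's control probes (solid for Cy5, dotted for Cy3). All 40-day points lie above all 10-day points of the same gene, and the Dro points at 10 days lie below the lines except on array 4, where the value is 154.0.

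The age ratios of all 3 were above 0 on every array. On the log2 scale the AttC ratio of 40 to 10 days was 3.66 on the arrays of letter A, 4.08 for B, 3.61 for C and 3.17 for D, a mean of 3.63 ± 0.37 (SD, n = 4), or 12.4-fold. Its rank by ratio was 4 among the 16637 transcripts, against 12 for DptB and 17 for Dro. For DptB the 4 ratios were 3.39, 3.65, 2.59 and 2.26, with a mean of 2.97 ± 0.66 (SD, n = 4), or 7.85-fold. For Dro they were 2.54, 3.36, 2.86 and 2.13, with a mean of 2.72 ± 0.52 (SD, n = 4), or 6.58-fold. The Dro ratio was set against 10-day readings of which 12 of 64 were above the 95th percentile of their controls and 0 above the 99th, so its size and its place among the 3 are not read. For AttC 28 of 64 were above the 95th and 10 above the 99th, and for DptB 45 and 12. The folds and ranks of AttC and DptB thus also rest in part on readings within the range of the controls. All 3 were highest on the arrays of letter B and lowest on those of letter D. By the order of the value table each 40-day sample entered the ratios of 2 letters. In that order the 4 ratios are not independent of one another.

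Over single arrays the log2 ratio of AttC ran from 2.70 on array 7 to 4.28 on array 3, that of DptB from 1.60 on array 7 to 4.52 on array 3, and that of Dro from 1.76 on array 7 to 3.85 on array 4. The same array gave the lowest ratio of all 3, and DptB had the widest range. Of the 24 probes, 21 had all 8 normalized 40-day channels above all 8 of the 10-day channels, a pattern that 0.931% of gene probes showed. They were 7 of 8 for AttC, 6 of 8 for DptB and 8 of 8 for Dro. The age contrast chose the members, so nothing further is read from this count.

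The age ratio was not even along the transcripts. Every one of the 24 probes had a mean ratio above 0, and in each gene the largest measured ratios came from probes that start late in the transcript, as the files number the bases. For AttC the log2 ratio was 1.09 ± 0.55 (SD, n = 4) at base 59 and 5.14 ± 0.69 at base 544, where 40 days exceeded 10 days 35.3-fold. For DptB it was 2.74 ± 0.53 at base 39 and 4.33 ± 0.85 at base 236, where the age difference was 20.1-fold. For Dro it was 2.84 ± 0.64 at base 105 and 3.77 ± 0.94 at base 128, where 1 and 2 of the 8 channels at 10 days were above the control limit. The measured mean log2 ratio of the last 4 probes exceeded that of the first 4 by 2.04 for AttC, 1.78 for DptB and 1.82 for Dro. Over all transcripts with 8 probes the median of this difference was 0.0045. Over the 222 transcripts called higher at an adjusted p of 0.05 it was 0.67. Of these, 210, 203 and 204 were below AttC, DptB and Dro in turn. The members were chosen by their rise, so their place among the 222 is not read as a trait of the 3.

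**Figure D2:**
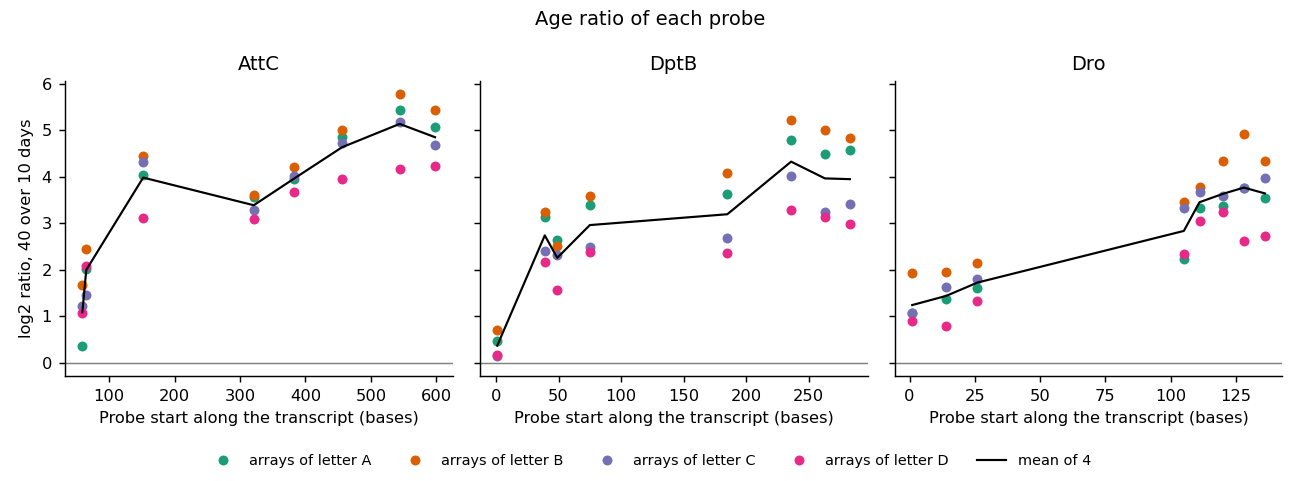
Log2 ratio of 40 to 10 days for each of the 8 probes of AttC, DptB and Dro against the base at which the probe starts. Coloured points are the means of the 2 arrays of a letter by the labels and the black line joins the means of the 4. The ratios are plotted as measured, also at the AttC probes at bases 65 and 321, the DptB probe at base 1 and the Dro probes at bases 1, 14 and 26, which were below the control limit in all 10-day channels. The highest means are 5.14 in AttC, 4.33 in DptB and 3.77 in Dro, all at late probes.

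Several early probes had few 10-day readings above the controls. From the first AttC probe to the last, 1, 0, 2, 0, 2, 7, 8 and 8 of the 8 channels at 10 days passed the limit, and for Dro 0, 0, 0, 1, 1, 2, 2 and 6 did. For DptB the counts were 0, 5, 7, 3, 7, 8, 8 and 7. In the 638 transcripts with 8 probes that were at least as bright as Dro at 40 days, the median log2 ratio stayed between -0.09 and 0.08 along the probes. Their median level still rose from the first probe to the last, from 9.13 to 12.13 at 40 days and from 9.03 to 11.94 at 10 days. In the 222 transcripts called higher the median log2 ratio rose from 0.25 at the first probe to 1.54 at the last. The RNA was amplified from oligo(dT) primers, and the part of background and of amplification in the smaller early ratios was not tested.

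The most intense probes show the size of the change without averaging. The AttC probe at base 544 read 19046 and 19100 at 40 days in the Cy5 channel of array 1 and the Cy3 channel of array 8, 20890 and 14605 on arrays 3 and 2, 24048 and 19636 on arrays 5 and 4, and 10053 and 9336 on arrays 7 and 6. At 10 days the same probe read 222, 182, 149 and 533 in Cy3 on arrays 1, 3, 5 and 7, and 1085, 949, 434 and 1075 in Cy5 on arrays 2, 4, 6 and 8. On each pair of arrays of a letter the Cy5 value at 10 days was the higher, and every 40-day value lay above every 10-day value.

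For DptB the probe at base 236 was brightest. At 40 days it read 9548 and 8847 on arrays 1 and 8, 21778 and 14475 on arrays 3 and 2, 8669 and 5356 on arrays 5 and 4, and 2595 and 2197 on arrays 7 and 6, and at 10 days between 119 and 1004 with a median of 342. Arrays 3 and 2 stood out as high and arrays 7 and 6 as low. For Dro the probe at base 136 read 2245 and 2318 on arrays 1 and 8, 2619 and 1555 on arrays 3 and 2, 11880 and 7164 on arrays 5 and 4, and 1184 and 1063 on arrays 7 and 6. Its 10-day values lay between 115 and 303 with a median of 182, and the high pair was that of arrays 5 and 4, not 3 and 2 as for DptB.

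The probes that did least lay at the start of the transcripts. The first DptB probe was near background throughout, with 34.1 to 101.8 at 10 days and 56.7 to 131.9 at 40 days, and only 1 of its 16 values, in the Cy3 channel of array 2 at 40 days, passed the 95th percentile of its channel's control probes. The AttC probe at base 59 read 409 in the Cy3 channel of array 1 at 10 days, against a median of 98.9 over the 8 channels of that age, so the ages overlapped at this probe. The AttC probe at base 65 shares 54 of its 60 bases with it and had 0 of 8 values above the control limit at 10 days and 8 of 8 at 40 days. The DptB probe at base 49 was the remaining probe at which the normalized channels of the ages overlapped. Its log2 ratio was 2.26 ± 0.48, with intensities of 120.0 to 492.5 at 10 days and 343 to 3608 at 40 days. At the Dro probes at bases 1 and 14 the intensities of the ages also overlapped, but the normalized channels did not. The last 5 Dro probes overlap their neighbours by 51 to 54 bases, so they are close to repeated readings of one stretch.

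How far the transcripts were above background at 10 days differed among the 3. A probe was counted as detected in a channel when its intensity passed the 95th percentile that the 4100 control probes had there. Of 64 probe readings at 10 days, 45 were detected for DptB, 28 for AttC and 12 for Dro, and against the 99th percentile 12, 10 and 0 were. At 40 days the detected readings were 57, 62 and 59 of 64. Most Dro readings at 10 days thus lay within the range of the control probes. At 5 probes that were below the control limit in all 10-day channels and above it in most at 40 days, only a rough lower bound of the fold can be given. It sets the 40-day mean against, in each 10-day channel, the lowest normalized level among probes above the limit or the probe's own level where that was higher. A reading at the limit can have a higher normalized level than that lowest one, so a strict bound would be smaller. By this rough measure the AttC probe at base 321 was 9.25-fold higher and that at base 65 2.74-fold higher at 40 days. The Dro probes at bases 1, 14 and 26 were 1.53-fold, 1.82-fold and 2.10-fold higher.

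The 4 samples of 40 days differed from one another, and how the channels are assigned decided how this appears. By the labels the Cy5 and Cy3 channels of one 40-day sample were 1.15 to 1.99-fold apart for AttC, 2.43 to 3.58-fold for DptB and 1.17 to 5.35-fold for Dro after normalization of the separate channels. In the order of the value table they were at most 1.09-fold apart for AttC, 1.21-fold for DptB and 1.10-fold for Dro. At 10 days, where both records hold the same channels together, the 2 dyes were up to 1.41-fold, 1.61-fold and 1.90-fold apart. The dyes of a 40-day sample were also compared over the 641 transcripts at least as bright as Dro at 40 days. Their median log2 difference was 0.22 to 0.74 by the labels and 0.12 to 0.18 in the order of the value table. The dyes of a 40-day sample were thus closer together in the order in which the 4 ratios share samples.

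**Figure D3:**
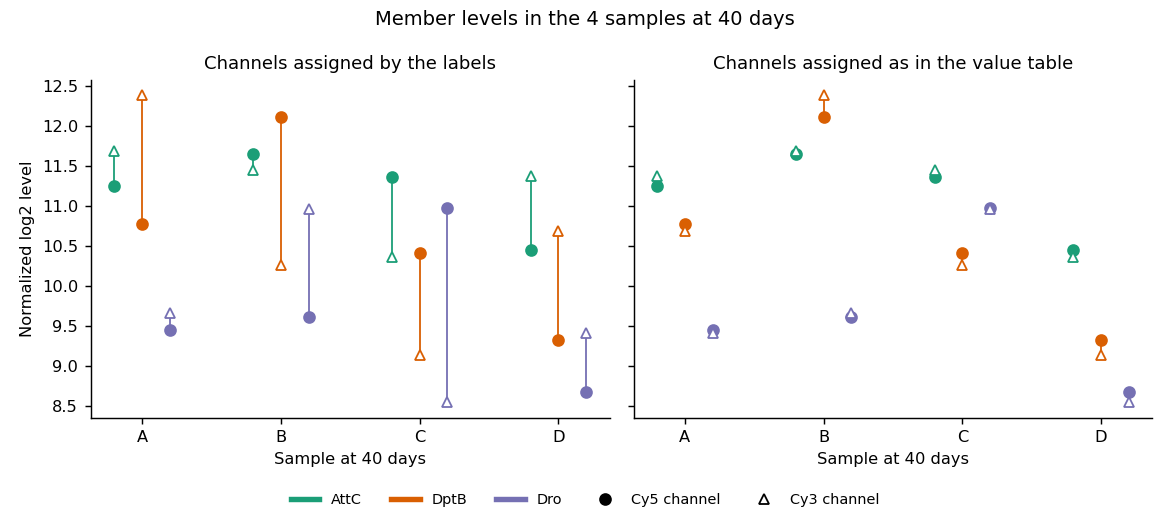
Normalized log2 level of AttC, DptB and Dro in the Cy5 channel (filled circles) and the Cy3 channel (open triangles) of each 40-day sample, with the channels assigned by the labels on the left and as in the value table on the right. On the right the 2 channels of a sample nearly coincide, sample D is lowest for all 3 genes, and Dro is highest in C where AttC and DptB are highest in B.

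In the order of the value table the normalized log2 level of AttC at 40 days was 11.31 in sample A, 11.67 in B, 11.41 in C and 10.41 in D (SD 0.55). That of DptB was 10.74, 12.25, 10.34 and 9.23 (SD 1.25), and that of Dro was 9.43, 9.65, 10.96 and 8.62 (SD 0.97). Sample D was lowest for all 3. From the lowest to the highest sample AttC changed 2.40-fold, DptB 8.08-fold and Dro 5.09-fold. Each pattern was shared by all the probes of its gene, since D was lowest at 8 of 8 probes of AttC, of DptB and of Dro, B was highest at 8 of 8 of AttC and of DptB, and C was highest at 8 of 8 of Dro. These counts include the first DptB probe, which was near background, and Dro probes that overlap. The probes of a gene read the same RNA and are not separate samples. In the whole table D was the lowest 40-day sample for 28.6% of transcripts, and among the 641 bright ones for 48%.

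DptB and Dro parted in samples B and C. From B to C the log2 level of DptB fell by 1.90, a 3.74-fold difference, whereas that of Dro was higher by 1.32, or 2.49-fold, and that of AttC fell by 0.27. Both dyes showed these directions. With 4 samples of an age no correlation between the genes was computed.

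By the labels the 40-day levels of AttC were 11.47, 11.55, 10.86 and 10.92 in samples A to D (SD 0.36), those of DptB 11.58, 11.19, 9.78 and 10.01 (SD 0.88), and those of Dro 9.56, 10.29, 9.76 and 9.05 (SD 0.51). AttC and DptB were then lowest in C and Dro in D, and B no longer lay below C for Dro. Among the 8 probes of a gene, C was lowest at 5 for AttC and 7 for DptB, and D at 7 for Dro. The spread of DptB was large in both orders: its SD at 40 days was above that of 99.5% of transcripts by the labels and 99.4% in the order of the value table, and above 97.2% and 96.3% of the 641 bright ones. Among the 641 the SD of AttC was above that of only 64.4% and 60.2%, and that of Dro above 82.7% and 88.6%.

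At 10 days the levels were low and closer together. AttC was at 7.81, 7.47, 7.25 and 7.74 in samples A to D by the labels (SD 0.26), DptB at 8.19, 7.54, 7.19 and 7.75 (SD 0.42) and Dro at 7.02, 6.93, 6.90 and 6.92 (SD 0.05). AttC and DptB were lowest in sample C, on arrays 5 and 6, and DptB was highest in sample A. For AttC samples A and D were close, A includes the reading of 409 at base 59, and in the authors' normalized values D was the higher, at 7.65. The small spread of Dro was measured where most of its readings were not above the control probes, and it gives no order of the samples.

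The age ratios of other immune genes were set beside these with limma, Benjamini-Hochberg adjusted over all 16637 transcripts. At an adjusted p of 0.01, 24 transcripts were higher at 40 days, or 0.144%, and 7 lower. At 0.05, 222 were higher, or 1.33%, and 33 lower. Of 70 genes in 6 lists of immune genes, 28 could be named, because names came from the study's list of probes that were induced with age. All 701 transcripts named in this way had ratios above 0, so the direction of the listed genes is not independent evidence. Genes of the lists that fell or did not change are not seen here. The list of probes came from these same arrays, so the share of listed genes called is not set against that of all transcripts. Of the 28, 2 were called higher at 0.01, 16 at 0.05 and 0 lower at either. By the order of the value table each 40-day sample entered the ratios of 2 letters. In that order the SEs and adjusted p of the listed genes do not come from independent ratios. At an unadjusted p under 0.05, 2934 of all transcripts passed.

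Of 10 other peptide genes under IMD control 6 were named, and their median log2 ratio was 1.31. The median for all transcripts was 0.0069, but the 6 were named only through the list of induced probes. AttA, an attacin gene next to Dro, was called at 0.01, with a log2 ratio of 1.71 ± 0.06 (SE, adjusted p = 0.0060), above 0 in 4 of 4. At 0.05 AttB, Mtk (the proline-rich antifungal peptide Metchnikowin) and DptA were called as well. DptA, the neighbour of DptB, had a ratio of 2.30 ± 0.14 (SE, adjusted p = 0.011), and AttB one of 0.93 ± 0.09 (SE, adjusted p = 0.027). AttA and AttB are near-identical copies, so their probes may share signal. AttD and CecC did not pass, with ratios of 1.12 and 0.96.

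Of 16 antifungal and Toll-controlled peptide genes 7 had a name, their median log2 ratio was 1.80, and 1 was called at 0.01 and 4 at 0.05. BomBc1, listed under its older name IM23 and encoding a bomanin, a peptide class of the Toll response, had a ratio of 3.06 ± 0.15 (SE, adjusted p = 0.0084). Drs, which encodes the antifungal peptide Drosomycin, had a ratio of 1.93 ± 0.25 (SE, adjusted p = 0.050) and did not pass. Peptides of both branches were thus among the genes called at 0.05, with names only from the list of induced probes.

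Among genes upstream of the peptides, 2 of 4 receptor genes were named and 1 was called at 0.05; the median of the log2 ratios of both was 1.32. PGRP-SD, a secreted recognition protein, had a log2 ratio of 1.92 ± 0.21 (SE, adjusted p = 0.038), and PGRP-LC, the membrane receptor of the pathway, one of 0.72 ± 0.12 (SE, adjusted p = 0.089). Of 12 signalling genes 3 were named, with a median of 0.68. The adaptor gene imd had a ratio of 0.71 ± 0.06 (SE, adjusted p = 0.021) and was called at 0.05, whereas key, which encodes the IKK-gamma subunit Kenny, had one of 0.53 ± 0.08 (SE, adjusted p = 0.066). Relish itself was not among the named genes.

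Of 12 negative regulators 5 were named, 4 were called at 0.05 and the median log2 ratio was 1.52. PGRP-SC2, an amidase that breaks down peptidoglycan, had a ratio of 4.32 ± 0.26 (SE, adjusted p = 0.011), above those measured for AttC and DptB. The ratio of pirk, which encodes an inhibitor of the receptor complex and is itself a target of the pathway, was 1.52 ± 0.11 (SE, adjusted p = 0.015). Of 16 Toll pathway genes 5 were named and 2 called at 0.05, with a median of 0.35. PGRP-SA, a receptor for Gram-positive bacteria, had a ratio of 2.65 ± 0.16 (SE, adjusted p = 0.011), and dl, which encodes the NF-kappaB factor Dorsal, one of 0.35 ± 0.04 (SE, adjusted p = 0.045).

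**Figure D4:**
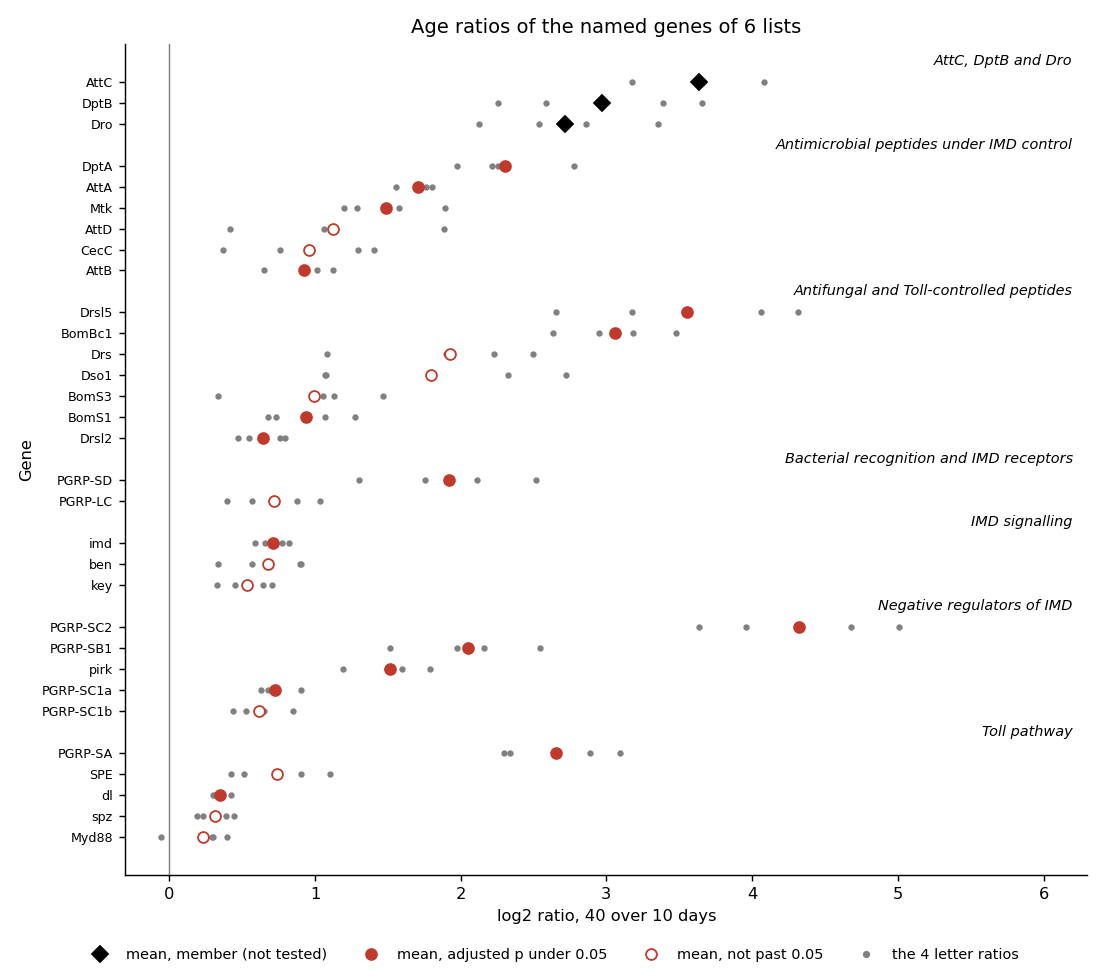
Log2 ratio of 40 to 10 days for AttC, DptB and Dro (black diamonds, not tested) and for the 28 named genes of 6 lists. Large circles are means, filled where the adjusted p over all transcripts was under 0.05, and small grey points are the 4 letter ratios. All named genes come from a list of induced probes. PGRP-SC2 at 4.32 lies above AttC at 3.63.

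The number of calls depended on the letters. Without the arrays of letter D, limma called 0 transcripts higher at 0.05, with 1926 past an unadjusted p of 0.05, and without those of letters A, B and C 16, 2 and 214 were called. Of the listed genes 3, 0, 13 and 0 were called without A, B, C and D in turn, against 16 with all 4. With the authors' normalized values as 4 samples against 4, which keeps the columns under their own names, 121 transcripts were called higher at 0.05, of which 14 were in the lists. With separate channels in the order of the value table, 143 were called higher at 0.05, of which 9 were in the lists.

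The order of the 40-day samples in the listed genes also depended on the assignment. In the order of the value table sample D was lowest for 20 of the 28 named list genes and sample B highest for 14. For the 701 named transcripts D was lowest in 39.7% and B highest in 25.7%. By the labels C was lowest for 17 of the 28 and A highest for 18, against 31.8% and 25.5% of the named transcripts. The values that follow are in the order of the value table. Among the IMD peptides AttA, AttB and Mtk were lowest in D, DptA was lowest in A, and AttD and CecC were lowest in B and highest in D. AttD changed 3.49-fold and DptA 1.62-fold between its lowest and highest sample, against 8.08-fold for DptB, the neighbour of DptA.

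Over the 8 samples, with each profile centred on its own mean, the transcripts nearest to the mean profile of the 3 members were IM23, CG8353, PGRP-SA, CG4269 and CG15210, at root mean square differences of 0.25 to 0.31 log2 units by the labels. These profiles span both ages and so contain the age ratio that chose the members, and the log2 ratios of the 5 lay between 2.65 and 3.37. By the labels the members themselves were 0.48 (AttC and DptB), 0.54 (AttC and Dro) and 0.57 (DptB and Dro) apart. In the order of the value table they were 0.60, 0.66 and 0.86 apart. These are distances between single profiles and are not set against those from a mean of 3. The nearest single transcript was CG4269 for AttC at 0.22, CG8353 for DptB at 0.41 and DptA for Dro at 0.26. With channels ordered as in the value table, 4 of these 5 transcripts were again among the nearest 5. The nearest single transcript then was CG8353 for AttC at 0.31 and for DptB at 0.50, and CG30090 for Dro at 0.44.

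The cardiac tube is a mixed tissue of muscle cells with pericardial and adhering cells, and in bulk RNA more cells of a type and more RNA per cell cannot be told apart. Of 54 marker genes in 7 lists of cell types 3 were among the named genes. The labelled tissue could therefore not be checked against its own markers. Names came only from the list of induced probes, so markers that fell or did not change could not be seen. The named ones were 1 of 11 for fat body and 2 of 12 for haemocytes, the blood cells. The haemocyte receptor NimC4 had a log2 ratio of 2.06 ± 0.08 (SE, adjusted p = 0.0060) and crq, a scavenger receptor of phagocytes, one of 0.63 ± 0.07 (SE, adjusted p = 0.041). The fat body gene apolpp, which encodes the main lipoprotein of the blood, had ratios of 1.77, 1.82, -0.04 and 1.33 in letters A to D, with an adjusted p of 0.21. Their part in the ratios of AttC, DptB and Dro was not tested.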

How the data were processed

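Per the file headers, the authors deposited scanner intensity values of each probe in both dyes, not yet normalized (NimbleScan 2.5.26), and a lowess-normalized table of linear intensity for the 8 samples in both dyes, with column medians of 70.4 to 99.9, not centred by gene. All columns were mapped to a sample. The arrays carry 60-base probes. Intensities were corrected with normexp (offset 50) and loess within arrays in limma 3.58.1 (R 4.3.3), with the control probes at weight 0. Each log2 ratio was set as 40 over 10 days and averaged over the dye-swapped arrays of a letter and then over a transcript's probes. The 4 ratios were tested against 0 with lmFit and eBayes and Benjamini-Hochberg adjustment over all transcripts. SEs of listed genes are limma's moderated SEs. Levels per sample come from the separate channels after Aquantile. A pseudocount of 1 was added to the normalized table before log2. The fit was tested on simulated data for the 40 against 10 day comparison over 16637 transcripts. The number of arrays limits precision.

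The members and lists were chosen with earlier results of these data known. The arrays hold transcript identifiers. Symbols were taken from the study's table of induced probes, which was held in part, by transcript identifier, and neighbours on the chromosome from RefSeq. Of several named transcripts of a gene the one with the most probes was used. Named by rule were the 3 members, up to 4 genes of a list past 0.01, or the 2 with the smallest p, and the nearest profiles. AttB, DptA, Mtk, AttD, CecC, Drs, NimC4, crq and apolpp were named after their values were seen. Alternatives were another background correction, median centring, the value table, separate channels, a filter on dim probes, the probe median, another prior and leaving out each letter. Figures were drawn in matplotlib 3.10.9 (Python 3.11.15, pandas 2.3.3, numpy 2.4.6).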

Additional observations from a re-analysis of the deposited data

Results flagged for a closer look

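In 84 groups of 4 samples of one age, covering the levels of the 3 transcripts and their 24 probes, 2 held a sample whose gap to its nearest neighbour took up an unusually large share of the range, above Dixon's 95% critical value for 4 samples. Chance flags about 1 in 20 separate groups. These groups share channels and probes with one another, so their count cannot be set against that rate. At the AttC probe that starts at base 59 the 10-day sample A lay apart, with a gap share of 0.848, through the reading of 409 in the Cy3 channel of array 1. At the Dro probe that starts at base 26 the 40-day sample C, in the order of the value table, lay above the other 3 with a gap share of 0.856.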

How the results depend on the processing

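AttC, DptB and Dro kept ratios above 0 under all alternatives. With the 4 probes that start latest the log2 ratios were 4.65, 3.86 and 3.63, and with the 4 earliest 2.62, 2.08 and 1.81. Without 1 letter at a time they ran from 3.48 to 3.79 for AttC, 2.75 to 3.21 for DptB and 2.51 to 2.92 for Dro. The counts of calls at 0.01 were unstable. Higher transcripts numbered 42 with offset 16, 37 with median centring, 52 with the dim-probe filter, 13 with the probe median, 1 with a trended robust prior, 266 with 8 arrays taken as independent and 222 at 0.05, and without 1 letter 0 in each case by limma, with 1610 to 2937 transcripts past an unadjusted p of 0.05. Lower transcripts numbered 11, 3, 0, 46 and 33 with the filter, the median, the prior, the 8 arrays and 0.05, and 0 without any letter. Listed genes numbered 5 without background correction, 6 with offset 16, 4 with median centring, 9 with the filter, 1 with the median, 16 with the 8 arrays, 16 at 0.05 and 0 without any letter.

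By the labels the letters pair the ages within arrays. In the authors' normalized table samples of one letter share 1 array, or 0 for B, and a replicate block by letter there gave 4 transcripts higher, 0 lower and 0 in the lists. Without the block the value table gave 50 higher and 6 in the lists, separate channels by the labels 136 higher, 12 lower and 10 in the lists, and separate channels in the order of the value table gave 45 higher and 4 in the lists. Deviations of same-letter samples correlated across transcripts from -0.13 to 0.38 by the labels and from -0.18 to 0.41 in the order of the value table. With values of both signs in each order, they do not settle whether the letters pair the samples. The SD at 40 days became 0.55 for AttC and 0.97 for Dro in the order of the value table, and 1.02 for Dro in its own values. Readings above the 99th percentile of the control probes at 10 days were 10, 12 and 0 for AttC, DptB and Dro. The cause of these changes was not tested.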
